A study of Danio rerio with 4 samples.

Results

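Injury epicardium-like cells were defined here by 4 genes. A well was taken when *adh8a* (ENSDARG00000091211) and *cldc1* (ENSDARG00000056379, also called *si:ch73-86n18.1*) together reached at least 2000 CPM (counts scaled to a total of 1000000 transcripts) and when *aldh1a2* (ENSDARG00000053493) or *wt1b* (ENSDARG00000007990) gave at least 1 transcript. Of 1453 wells with 1000 or more transcripts, 200 (13.8%) met both conditions, and the other 1253 wells served for comparison. The wells came from 4 plates of sorted cells, each plate being 1 library in which a single cell was placed in a well. 2 plates held *prrx1b*-/- cells and contributed 121 of the 200 wells, and 2 plates held wild type cells and contributed 79. The labels give the line as Tg(tcf21:mCherry), and by the methods all fish combined a Tg(tcf21:CreERT2) driver with a switch transgene, Tg(ubi:loxP-EGFP-loxP-mCherry), recombined by 4-hydroxytamoxifen in embryos. mCherry-positive cells were sorted from ventricles of adult fish of both genotypes, 7 days after a cryoinjury. The *prrx1b* fish carry the el491 allele, a nonsense mutation ahead of the part that encodes the DNA-binding domain. Hearts were pooled within a genotype and no separate hearts are named for each plate, so a p value between genotypes measures only the spread between plates, which may be technical. Under this design mCherry is driven by the *ubi* promoter once Cre has acted, so it marks cells that expressed *tcf21*:CreERT2 in the embryo and their descendants, whatever their *tcf21* level in the adult heart.

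The epicardium is the mesothelial sheet that covers the heart. After injury it is activated, switches on *aldh1a2*, which encodes the enzyme that makes retinoic acid, and the transcription factor gene *wt1b*, and sends signals to the muscle beneath. Some epicardial cells leave the sheet by epithelial-to-mesenchymal transition and give rise to fibroblasts and mural cells. *adh8a* encodes a member of the alcohol dehydrogenase family. Prrx1 is a homeobox transcription factor of mesenchymal cells. Symbols below are those of a gene table that writes some zebrafish genes with the capital symbol of the mammalian gene, and a gene ID is added where 1 symbol stands for several genes.

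The 4 genes that chose the wells are given as a description only. *adh8a* had 1785 and 1225 CPM (summed over the wells of a plate) in *prrx1b*-/- and 1654 and 1616 CPM in wild type injury epicardium-like wells, against 151 and 168 CPM in other *prrx1b*-/- wells and 260 and 184 CPM in other wild type wells, a range of 151 to 260 CPM. *cldc1* had 2251 and 2397 CPM in *prrx1b*-/- and 1772 and 1935 CPM in wild type injury epicardium-like wells, against 331 and 335 CPM in other *prrx1b*-/- wells and 216 and 182 CPM in other wild type wells. Of the 200 wells, 181 held transcripts of both genes, 8 of *adh8a* alone and 11 of *cldc1* alone. The combined level had a median of 3163 CPM and reached 12927. The 3 lowest wells inside the limit had 2008, 2011 and 2018 CPM, and the 3 highest wells outside it that also had *aldh1a2* or *wt1b* had 1988, 1970 and 1949 CPM. There was thus no gap at the limit: 89 wells lay between 2000 and 3000 CPM, and 135 wells with *aldh1a2* or *wt1b* lay between 1000 and 2000. At least 1 *adh8a* or *cldc1* transcript was found in 61.4% of the other wells, so the class is the upper range of a graded signal. *aldh1a2* was found in 164 of the 200 wells, *wt1b* in 173 and both in 137. Another 42 wells passed the *adh8a* and *cldc1* limit without a transcript of *aldh1a2* or *wt1b* and were left among the other wells.

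*tcf21* had 90.2 and 30.5 CPM in *prrx1b*-/- and 48.9 and 184 CPM in wild type injury epicardium-like wells, against 99.1 and 79.2 CPM in other *prrx1b*-/- wells and 104.8 and 109 CPM in other wild type wells (log2 fold change -0.21 ± 0.25 SE, edgeR adjusted p = 0.64). *tbx18*, another epicardial transcription factor gene, had a log2 fold change of -0.02 ± 0.19 (edgeR adjusted p = 0.95). The plates overlapped for both genes. A second Wilms tumour gene and a basonuclin gene of the epicardium passed. *WT1* (ENSDARG00000031420) was higher by 0.85 ± 0.18 on the log2 scale and *BNC2* by 0.86 ± 0.18 (edgeR adjusted p = 0.001 for each). Of 10 genes that could be tested from a list of epicardial transcription factors, *WT1* and *BNC2* rose, *TBX20* fell and 7 did not pass. That list also holds the semaphorin gene *SEMA3D*. Over all genes tested 10.1% were higher and 8.78% were lower, so with 10 genes these counts are a description only.

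Injury epicardium-like wells were deeper than other wells. Their median was 10243.5 and 9738 transcripts in the *prrx1b*-/- and 8899 and 5780 in the wild type plates, against 7146 and 6748 in other *prrx1b*-/- wells and 5568 and 4829 in other wild type wells. The ratio of cell transcripts to spike-in transcripts was also higher, with plate medians of 6.53 to 8.42 in injury epicardium-like wells and 4.49 to 6.24 in other wells. A well with more transcripts more readily shows 1 of *aldh1a2* or *wt1b*, and the part of depth in the results was not tested beyond the thinned values given below. The median share of mitochondrially encoded transcripts was 1.68% to 2.29% in injury epicardium-like wells and 1.85% to 2.56% in other wells, and no injury epicardium-like well exceeded 30%. The same 384 well labels occur in every plate, as each plate was its own library, and doublets were not called because each well received 1 cell.

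The share of injury epicardium-like wells was 13.7% (95% Clopper-Pearson interval 10.3 to 17.6%) and 19.4% (15.5 to 23.8%) in the *prrx1b*-/- plates, against 9.52% (6.69 to 13.1%) and 12.4% (9.16 to 16.2%) in the wild type plates. Both mutant plates were above both wild type plates, with means of 16.5 ± 4.06% and 10.9 ± 2.01% (SD, n = 2 each), a difference of 5.59 percentage points. The exact two-sided permutation test over the 4 plates gave p = 0.333, which is the smallest p that 2 plates against 2 can give. To even out depth, 1000 transcripts were drawn at random from every well and the same rule was applied. A few transcripts then reach the limit, and of the 150 wells chosen this way 113 (75.3%) were among the 200. The share was then 9.59% (6.77 to 13.1%) and 15.6% (12.01 to 19.7%) in the *prrx1b*-/- plates, against 7.87% (5.29 to 11.2%) and 8.24% (5.63 to 11.6%) in the wild type plates (difference 4.53 points, exact permutation p = 0.333). Without *prrx1b*-/- plate 2 the difference was 2.72 points for all transcripts and 1.54 points after thinning, and without *prrx1b*-/- plate 1 it was 8.46 and 7.52 points. The intervals cover counting error only.

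**Figure D1:**
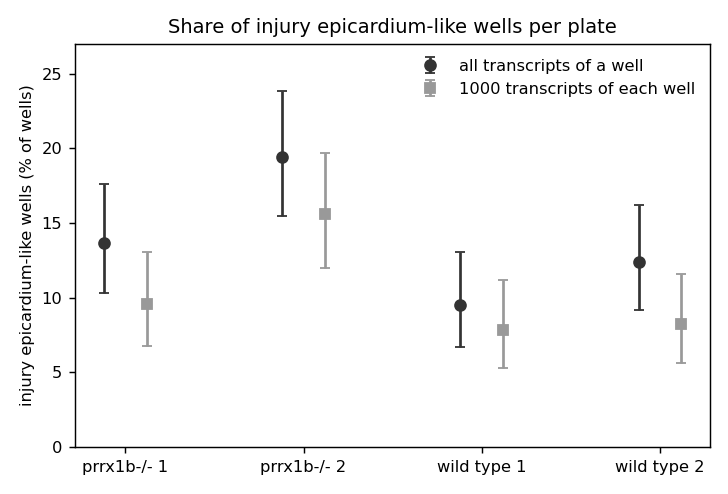
Share of injury epicardium-like wells in each plate (y axis, % of wells; bars, 95% Clopper-Pearson intervals), from all transcripts of a well (circles) and from 1000 randomly drawn transcripts of each well (squares). From all transcripts the *prrx1b*-/- plates lie at 13.7% and 19.4% and the wild type plates at 9.52% and 12.4%. These intervals overlap between the genotypes for every pair of plates except *prrx1b*-/- plate 2 and wild type plate 1. From 1000 drawn transcripts the interval of *prrx1b*-/- plate 2 (12.01 to 19.7%) overlaps neither wild type interval (5.29 to 11.2% and 5.63 to 11.6%). That of *prrx1b*-/- plate 1 (6.77 to 13.1%) overlaps both. The intervals cover counting error within a plate only, so their overlap is not a test between the genotypes.

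To ask what else was expressed in these wells, transcripts were summed over the injury epicardium-like and over the other wells of each plate, and the sums were compared by edgeR's quasi-likelihood test with the plate as a block. The 4 genes of the rule were left out, and the other genes are those that the rule did not use, measured in the same wells. Of 8631 genes tested, 874 (10.1%) were higher and 758 (8.78%) were lower in injury epicardium-like wells at a Benjamini-Hochberg adjusted p under 0.05. When wells were chosen on 1 random part of their transcripts and compared on the other part, 959 of 6249 genes passed, 909 of them among the 1632 genes above and in the same direction.

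The complement genes *c3a.1* and *c7b* had the largest increases of the genes named against all other wells. Complement is a cascade of secreted proteins that tags and lyses targets and recruits immune cells. *c3a.1* (ENSDARG00000012694), which encodes the central component C3, had 611 and 665 CPM in *prrx1b*-/- and 549 and 504 CPM in wild type injury epicardium-like wells, against 103 and 75.6 CPM in other *prrx1b*-/- wells and 88.05 and 53.8 CPM in other wild type wells (log2 fold change 3.02 ± 0.15). Every plate of the first class was at least 4 times as high as any plate of the second, and in wells thinned to 1000 transcripts *c3a.1* was seen in 31.5% of injury epicardium-like and 4.8% of other wells. *c7b*, encoding a part of the membrane attack complex, had 244 and 636 CPM in *prrx1b*-/- and 236 and 165 CPM in wild type injury epicardium-like wells, against 32.3 to 49.4 CPM in the other wells of the 4 plates (log2 fold change 2.96 ± 0.25). *c4b*, encoding component C4, had 2054 to 2502 CPM against 680 to 969 CPM (1.67 ± 0.12), and *cfd*, encoding complement factor D, 267 to 339 CPM against 80.7 to 101 CPM (1.88 ± 0.15). All 4 had edgeR adjusted p values under 0.001. Of 8 complement and acute phase genes tested, 5 rose, 1 fell and 2 did not pass, with a median log2 fold change of 1.28, beside a median near 0 (-0.004) over all genes tested. The whole list rose less. It summed to 8090 and 8992 CPM in *prrx1b*-/- and 4403 and 5799 CPM in wild type injury epicardium-like wells. Other wells had 6619 and 5891 CPM in *prrx1b*-/- and 3913 and 3615 CPM in wild type plates.

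*gcga* (ENSDARG00000079296), a proglucagon gene known for hormone production in the pancreas and gut, was the most abundant of the 15 genes with the largest increases. It had 2288 and 2759 CPM in *prrx1b*-/- and 1383 and 1488 CPM in wild type injury epicardium-like wells, against 323 and 341 CPM in other *prrx1b*-/- wells and 330.0 and 251 CPM in other wild type wells (log2 fold change 2.77 ± 0.14, edgeR adjusted p under 0.001). The plates of both classes did not overlap. After thinning to 1000 transcripts, *gcga* was found in 47.5% of injury epicardium-like wells (42.2% to 52.1% by plate) and in 10.6% of other wells.

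The other genes with the largest increases had varied roles. *LPL*, encoding the enzyme that frees fatty acids from lipoproteins, had 143 and 144 CPM in *prrx1b*-/- and 299 and 257 CPM in wild type injury epicardium-like wells, against 26.2 and 27.8 CPM in other *prrx1b*-/- wells and 57.3 and 47.8 CPM in other wild type wells (log2 fold change 2.54 ± 0.16). The nucleoside transporter gene *SLC29A1* (2.86 ± 0.26), the monocarboxylate transporter gene *slc5a8l* (2.51 ± 0.19) and *ggt1a*, a gamma-glutamyltransferase gene (2.92 ± 0.35), rose as well. *EFNA1*, encoding a membrane-bound ligand of Eph receptors, had 229 to 332 CPM against 61.7 to 84.7 CPM (2.15 ± 0.14). *jam2b*, encoding a junctional adhesion molecule, had 52.8 to 85.6 CPM against 10.2 to 15.9 CPM (2.36 ± 0.23), and *s100a10a*, encoding a calcium-binding protein family member, 224 to 560 CPM against 68.8 to 125 CPM (2.06 ± 0.17). *LRATD2* (2.74 ± 0.25), *HECW2* (2.63 ± 0.33), *SNX30* (2.32 ± 0.21) and the uncharacterised *si:ch211-106h4.12* (2.67 ± 0.19) were the remaining ones, all with edgeR adjusted p values under 0.001. *si:dkeyp-1h4.9* was higher in injury epicardium-like wells of each plate (2.31 ± 0.16) but also differed between the genotypes, as described below. The paper gives this gene as a marker of a fibroblast cluster made up mostly of wild type cells.

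**Figure D2:**
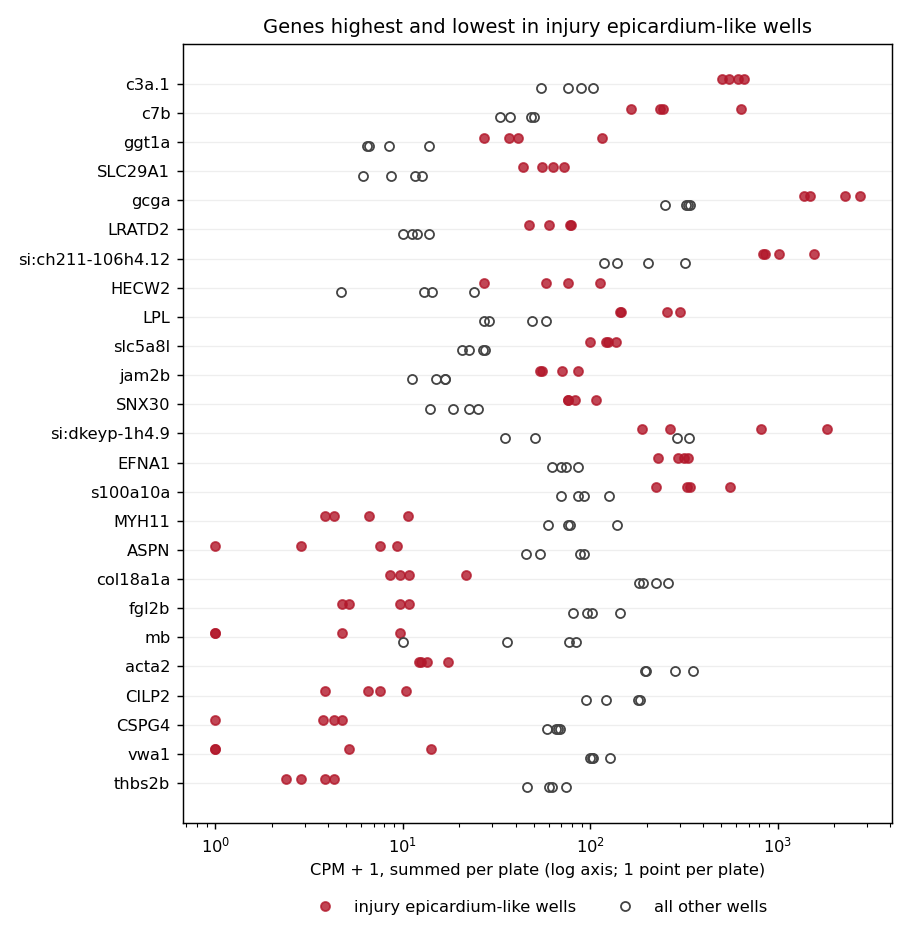
Levels of the 15 genes with the largest increases and the 10 with the largest decreases in injury epicardium-like wells (filled) and all other wells (open), 1 point for each of the 4 plates (x axis, CPM + 1 on a log axis). For *c3a.1* the filled points lie at 504 to 665 CPM and the open points at 53.8 to 103 CPM, and for *acta2* the order is turned round.

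Genes of vitamin A metabolism other than *aldh1a2* were examined because *adh8a* and *aldh1a2* belong to enzyme families that oxidise alcohols and aldehydes, among them retinol and retinal. *RDH10* (ENSDARG00000012369), encoding an enzyme of the step from retinol to retinal, had 1768 and 2127 CPM in *prrx1b*-/- and 1461 and 1007 CPM in wild type injury epicardium-like wells, against 1085 and 1080.2 CPM in other *prrx1b*-/- wells and 652 and 693 CPM in other wild type wells (log2 fold change 0.99 ± 0.12). It was higher within each of the 4 plates. *adh5*, an alcohol dehydrogenase gene, rose by 0.86 ± 0.15. *CRABP2* (ENSDARG00000030449), encoding a carrier of retinoic acid inside the cell, had 31.9, 36.1, 17.3 and 46.1 CPM against 92.02 to 166 CPM and fell (-1.66 ± 0.22). *STRA6*, encoding a retinol transporter, fell as well (-1.70 ± 0.32). These 4 genes had edgeR adjusted p values of at most 0.001. Of 18 genes of the pathway tested, 5 (27.8%) rose, 2 (11.1%) fell and 11 did not pass, with a median log2 fold change of 0.48. Over all genes tested 10.1% were higher and 8.78% were lower.

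Genes of secreted signals and of prostaglandin synthesis, counted as 1 list, were more often higher than lower. Of 24 tested, 10 (41.7%) rose, 3 (12.5%) fell and 11 did not pass, beside 10.1% higher and 8.78% lower over all genes tested. *csf1a*, encoding a growth factor for macrophages, had 221 to 365 CPM in injury epicardium-like wells against 64.5 to 104 CPM in other wells (log2 fold change 1.97 ± 0.15). *PTGS2* (ENSDARG00000004539), a cyclooxygenase gene of prostaglandin synthesis, had 1922 and 2630 CPM in *prrx1b*-/- and 1404 and 1438 CPM in wild type injury epicardium-like wells, against 1067 and 1405 CPM in other *prrx1b*-/- wells and 749 and 852 CPM in other wild type wells (0.99 ± 0.10). The Wnt antagonist gene *SFRP1* (ENSDARG00000035521) rose by 1.93 ± 0.20 and *angptl2b*, encoding an angiopoietin-like protein, fell by 2.11 ± 0.20 on the log2 scale. *cxcl12b*, encoding a chemokine ligand, gave transcripts in a single plate of injury epicardium-like wells (3.76 CPM) and had 21.1 to 47.8 CPM in the other wells of the plates. Each of these genes had an edgeR adjusted p value under 0.001.

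Genes of epithelial cells and junctions went both ways, with 6 of 24 (25%) rising, 8 (33.3%) falling and 10 not passing. Over all genes tested 10.1% were higher and 8.78% were lower. The keratin gene *krt15* had 3171 and 3441 CPM in *prrx1b*-/- and 2954 and 2564 CPM in wild type injury epicardium-like wells, against 1933 and 1863 CPM in other *prrx1b*-/- wells and 1702 and 1354 CPM in other wild type wells (log2 fold change 0.97 ± 0.10). *krt91* rose by 1.16 ± 0.14. *krt18b* fell by 1.06 ± 0.13 on the log2 scale, and the claudin gene *cldni* had at most 4.17 CPM, against 35.5 to 58.1 CPM. The interferon-inducible gene *IRF7* (1.30 ± 0.18, edgeR adjusted p under 0.001) was among 5 of 17 (29.4%) that rose, while 1 (5.88%) fell and 11 did not pass. Cytosolic ribosomal protein genes rose in 71 of 72 cases with a median log2 fold change of 0.51. They summed to 118949 to 166192 CPM in injury epicardium-like wells and 89381 to 127657 CPM in other wells, and were higher within each plate.

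Collagens and most other matrix genes on the lists were lower. All 16 collagen genes that could be tested fell, with a median log2 fold change of -1.40, and collagens summed to 12592 to 14891 CPM in injury epicardium-like wells against 29663 to 42415 CPM in other wells. *COL1A1* (ENSDARG00000035809), encoding a chain of type I collagen, had 3252 and 3348 CPM in *prrx1b*-/- and 2652 and 3110.4 CPM in wild type injury epicardium-like wells, against 9618 and 10258 CPM in other *prrx1b*-/- wells and 6639 and 9577 CPM in other wild type wells (-1.39 ± 0.09). *COL5A1* (-1.67 ± 0.11), *COL12A1* (ENSDARG00000019601, -2.05 ± 0.13) and *col18a1a* (-3.90 ± 0.25) fell as well. Of 28 fibroblast and matrix genes, 22 fell, 2 rose and 4 did not pass. The genes that rose are not named here. Those that fell included the collagen-binding proteoglycan genes *DCN* (-1.07 ± 0.10) and *LUM* (-2.35 ± 0.19), *DPT* (-1.77 ± 0.15) and *SPARC* (-1.04 ± 0.10), all with edgeR adjusted p values under 0.001. The whole list fell less than these genes. It summed to 29208 and 33079 CPM in *prrx1b*-/- and 25025 and 21374 CPM in wild type injury epicardium-like wells. In other wells it summed to 40426 and 42488 CPM in *prrx1b*-/- and 29118 and 35039 CPM in wild type plates. The periostin gene *POSTN* (ENSDARG00000043806), which marks activated fibroblasts, gave 0 of the 1903990 transcripts of injury epicardium-like wells, against 8.17 to 27.16 CPM in the other wells of the 4 plates. With 3 transcripts over all injury epicardium-like wells as the limit that a count of 0 allows (1.58 CPM), it was at least 12.8-fold lower.

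Genes of pericytes and smooth muscle were lower too, with 10 of 12 falling, 1 rising and 1 not passing. *acta2*, encoding smooth muscle actin, had 11.3 and 12.5 CPM in *prrx1b*-/- and 11.5 and 16.5 CPM in wild type injury epicardium-like wells, against 354 and 195 CPM in other *prrx1b*-/- wells and 282 and 198 CPM in other wild type wells (log2 fold change -4.16 ± 0.24). The plates of both classes lay more than 10-fold apart. *MYH11*, a smooth muscle myosin gene (-3.69 ± 0.32), *CSPG4*, a pericyte proteoglycan gene (-4.44 ± 0.39), *TAGLN* (ENSDARG00000045408, -2.31 ± 0.16) and the potassium channel gene *KCNJ8* (-1.98 ± 0.38) fell, with edgeR adjusted p values of at most 0.001. The matrix genes *thbs2b*, *vwa1*, *CILP2* and *ASPN*, the fibrinogen-like gene *fgl2b* and the myoglobin gene *mb* were the other genes with the largest decreases, between -4.68 and -3.84 on the log2 scale. Of these, *mb* had only 9.03 CPM in the other wells of wild type plate 2.

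Genes of TGF-beta and BMP signalling, counted as 1 list, fell in 8 (28.6%) and rose in 4 (14.3%) of 28 cases. Over all genes tested 8.78% were lower and 10.1% were higher, so the rises lay near that share. The ligand genes *INHBA* (ENSDARG00000012671, -3.03 ± 0.27), *TGFB3* (-0.75 ± 0.17) and *tgfb1a* (-0.65 ± 0.16) were lower. *ID1*, also on this list, was higher (0.97 ± 0.13). Each of these genes had an edgeR adjusted p value of at most 0.004. Protease genes included *MMP9*, which had at most 8.63 CPM in injury epicardium-like wells and 24.5 to 40.5 CPM in other wells (-3.19 ± 0.51). Of 11 cell cycle genes tested, 6 (54.5%) fell and 1 (9.09%) rose. Those that fell included *CCND2* (ENSDARG00000070408, -2.13 ± 0.30) and *PCNA* (-1.13 ± 0.22). Immediate early genes, which respond to stimulation and to tissue dissociation, rose in 11 (36.7%) and fell in 4 (13.3%) of 30 cases. The falls lay near the share over all genes tested. *CEBPB* (0.83 ± 0.13) and *ATF3* (0.70 ± 0.12) were higher and *EGR3* (-0.96 ± 0.15) was lower, with edgeR adjusted p values under 0.001, while the whole list summed to 18680 to 20930 CPM in injury epicardium-like wells and 17522 to 21692 CPM in other wells.

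**Figure D3:**
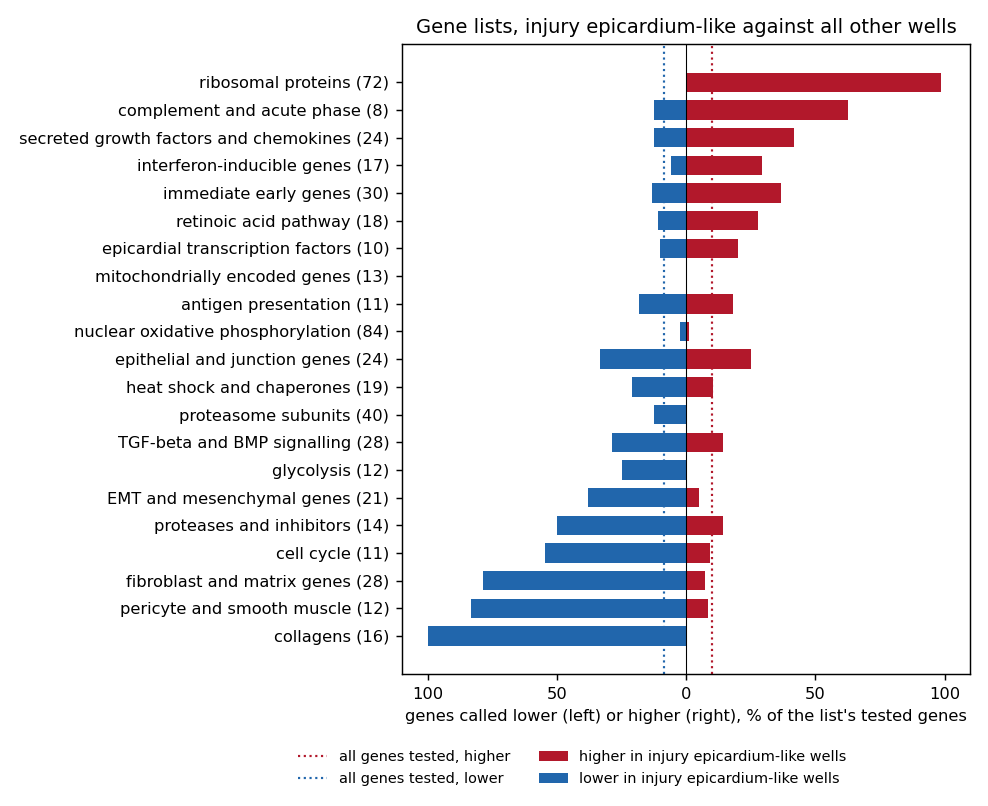
Share of the tested genes of each list (number in brackets) that was called higher (right) or lower (left) in injury epicardium-like wells than in all other wells, in % (edgeR, adjusted p under 0.05). Dotted lines give the shares over all genes tested, 10.1% higher and 8.78% lower, and lists with fewer than 5 tested genes are not drawn. All 16 collagen genes were lower and 71 of 72 ribosomal protein genes were higher.

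Most defining markers of other cell types were at or near 0 in the injury epicardium-like wells. Low levels were not particular to this class. Over all plates the cardiomyocyte, endothelial and erythrocyte lists had 57.2, 99.8 and 17.3 CPM, against 102.6, 91.9 and 38.7 CPM in other wells. Of 10 cardiomyocyte genes, 5 had no transcript and 80 of the 109 transcripts came from *atp2a2a*, which is not restricted to muscle. Of 9 endothelial genes, 5 had none and 181 of 190 transcripts came from *CLDN5* (ENSDARG00000043716). Of 6 erythrocyte genes, 4 had none. Of 10 leukocyte genes, 2 had none and 4 more had at most 2 transcripts. The other 4 were *il2rb* with 14 transcripts, the antigen presentation genes *cd74a* with 24 and *cd74b* with 17, both lower than in other wells (log2 fold changes -1.84 ± 0.53 and -2.11 ± 0.35, edgeR adjusted p = 0.016 and 0.00014), and *MPEG1*. *MPEG1* (ENSDARG00000043093), a macrophage gene, had 22.5 and 34.7 CPM in *prrx1b*-/- and 48.9 and 32.9 CPM in wild type injury epicardium-like wells, against 7.41 to 18.7 CPM in other wells (log2 fold change 1.72 ± 0.29, edgeR adjusted p under 0.001). The leukocyte list as a whole summed to 44.4 to 145 CPM in injury epicardium-like wells and 43.2 to 303 CPM in other wells.

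Several of the differences were graded along the combined level of *adh8a* and *cldc1*. Wells with *aldh1a2* or *wt1b* were split by that level into 265 wells with no *adh8a* or *cldc1* transcript, 429 wells below 1000 CPM, 135 wells from 1000 to 2000, 133 wells from 2000 to 4000 and 67 wells at 4000 or more. *c3a.1* had 2.34 to 20.2 CPM over the 4 plates in the first of these, then 60.6 to 92.8, 232 to 278, 332 to 623 and 605 to 969 CPM. The ranges of the plates did not overlap between the steps below 2000 CPM. *c4b* had 114 to 239, 551 to 1027, 1643 to 2305, 1959.7 to 2646 and 2291 to 2569.6 CPM along the same steps and overlapped among the top 3. *gcga* had 48.6 to 185, 246 to 537, 400.4 to 992, 1197 to 2511 and 1004 to 3897 CPM. Collagen ran the other way, as *COL1A1* had 8514 to 12259, 7251 to 11712, 3430.3 to 6013, 2876 to 3868 and 2219 to 2879 CPM, and *DCN* had 3673 to 4427, 2326 to 3097, 1278 to 1692, 1266 to 1521 and 951 to 1281 CPM. Wells without *adh8a* or *cldc1* transcripts were shallower, with plate medians of 4339.9 to 6716 transcripts, against 9405 to 11147 in the wells below 1000 CPM. Not every gene followed along these steps was graded throughout. *krt15* had 2592 to 3134 CPM from 1000 to 2000, 2185 to 3404 CPM from 2000 to 4000 and 2366 to 3696 CPM at 4000 or more. *s100a10a* had 237 to 602 CPM from 2000 to 4000 and 42.02 to 434 CPM at 4000 or more. All genes followed had already been named as differing between the classes. These values are a description, since neighbouring steps differ by counting error in 2 genes.

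**Figure D4:**
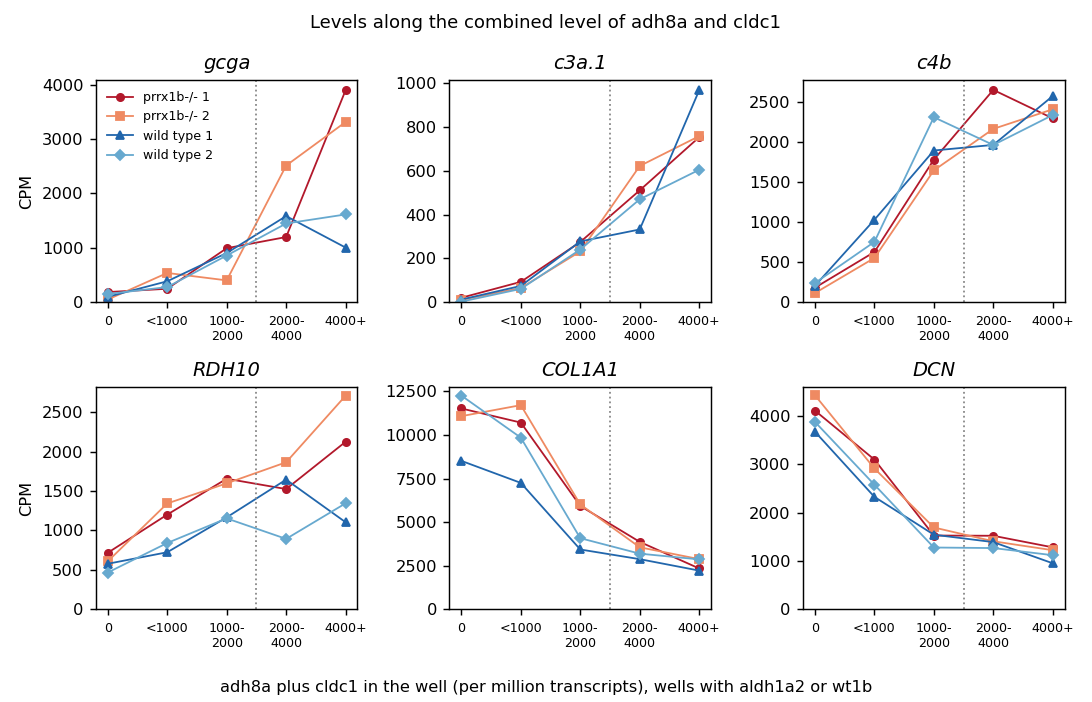
Levels (y axis, CPM) of 6 genes that the rule did not use, in wells with *aldh1a2* or *wt1b* grouped by the combined level of *adh8a* and *cldc1* (x axis, CPM), 1 line for each plate. Wells right of the dotted line are the injury epicardium-like wells. *c3a.1* runs from 2.34 to 20.2 CPM at the left end to 605 to 969 CPM at the right end, and *COL1A1* from 8514 to 12259 CPM to 2219 to 2879 CPM.

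Injury epicardium-like wells were then set against 240 remote-like wells, which had a transcript of *tcf21* or *tbx18* and none of *aldh1a2* or *wt1b*. From this pattern in cell clusters the paper proposes epicardium over remote muscle. It also reports that stains for further genes of those clusters marked epicardium over the uninjured part of the heart. Here the pattern only names the wells. Remote-like wells summed to 10788 to 13452 CPM for epithelial and junction genes, against 16458 to 19959 CPM in all other wells. For pericyte and smooth muscle genes they summed to 2492 to 4562 CPM, against 1802 to 2468 CPM. The 6 genes used to choose either class were left out. Of 3732 genes tested, 577 (15.5%) were higher and 537 (14.4%) were lower in injury epicardium-like wells (edgeR with the plate as a block). Remote-like wells were shallower, with plate medians of 3200 to 5605 transcripts. Transcripts of *aldh1a2* or *wt1b* may thus have been missed in some of them, which was not tested. *gcga* showed 36.6 and 37.5 CPM in remote-like *prrx1b*-/- and 30.8 and 43.4 CPM in remote-like wild type wells, so that the 1383 to 2759 CPM of injury epicardium-like wells were higher by 5.81 ± 0.18 on the log2 scale. *slc5a8l* rose by 5.97 ± 0.48 and had no transcript in remote-like wells of 2 plates. Of 18 epithelial and junction genes tested, 8 were higher, 2 were lower and 8 did not pass. *podxl*, encoding podocalyxin of the apical cell surface, had 316 to 393 CPM against 19.6 to 40.7 CPM (3.69 ± 0.25), and *crb2b*, encoding a Crumbs polarity protein, 197 to 273 CPM against 4.34 to 16.8 CPM (4.40 ± 0.30). *il11b*, a cytokine gene, had a log2 fold change of 3.68 ± 0.35, *RDH10* of 2.52 ± 0.14 and the transcription factor gene *HAND2* of 1.64 ± 0.29. *ITM2C*, the lipase gene *LIPG*, *RAVER2* and *si:ch211-66e2.3* were also among the 15 largest increases (3.86 to 4.67). All of these had edgeR adjusted p values of at most 0.001. Of 10 retinoic acid pathway genes tested here 1 rose, 1 fell and 8 did not pass, with a median log2 fold change of -0.16. Of 6 genes tested from the list of epicardial transcription factors 2 rose, 2 fell and 2 did not pass.

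Lower than in remote-like wells were matrix genes, heat shock genes and immediate early genes. *fgl2b* had 3.76 and 4.17 CPM in *prrx1b*-/- and 8.63 and 9.87 CPM in wild type injury epicardium-like wells, against 314 and 262 CPM in remote-like *prrx1b*-/- wells and 490.1 and 269 CPM in remote-like wild type wells (log2 fold change -5.60 ± 0.29). *MATN4*, encoding a matrilin (-5.04 ± 0.58), *ITIH5*, encoding a hyaluronan-binding protein (-4.56 ± 0.39), *vcanb*, encoding the proteoglycan versican (-4.01 ± 0.39), and *RGS4* (-4.50 ± 0.43) fell, as did 11 of 14 collagen genes while 2 rose. *acta2* fell by 4.50 ± 0.53, with 1442 CPM in remote-like wells of wild type plate 1 and 39.1 to 215 CPM in those of the other plates. *DPT* (-2.84 ± 0.18) and the elastic fibre gene *mfap5* (-2.51 ± 0.12) fell with them. Of 17 heat shock and chaperone genes 9 fell and 2 rose, *hsp70l* by -2.01 ± 0.22, and of 27 immediate early genes 16 fell and 1 rose, *FOS* by -1.66 ± 0.09. *HSPH1* (-1.60 ± 0.28) and *RTCA* (-1.10 ± 0.23), which had been listed as markers of the remote epicardium, fell too. That list was made with earlier results of these data known, and *HSPH1* is also on the heat shock list. These falls are therefore a description and do not bear on what the remote-like wells are. Against all other wells, none of the 4 genes of the remote epicardium list passed. The genes named here had edgeR adjusted p values of at most 0.004 against remote-like wells. Heat shock genes summed to 14390 to 18183 CPM in injury epicardium-like, 13594 to 17179 CPM in all other and 21879 to 30825 CPM in remote-like wells, and whether this stress signal plays a part in the other differences from remote-like wells was not tested.

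To ask whether loss of *prrx1b* changed these cells, the 2 *prrx1b*-/- sums were compared with the 2 wild type sums of injury epicardium-like wells. The gene table gives the symbol *PRRX1* to a pair of genes without saying which is *prrx1b*. The paper reports that *prrx1b* was too low in these cells to be tied to a cluster. The levels of the more abundant gene are thus not to be read as those of *prrx1b*. ENSDARG00000033971 had 54.5 and 124 CPM in *prrx1b*-/- and 92.04 and 105.3 CPM in wild type injury epicardium-like wells, and ENSDARG00000042027 gave 1 transcript in all of them. A nonsense mutation need not lower transcript numbers, so these values do not check the labels. Of 4507 genes tested, 9 (0.2%) were lower and 0 (0%) were higher in *prrx1b*-/- injury epicardium-like wells (edgeR, adjusted p under 0.05), and 475 had an unadjusted p under 0.05. DESeq2 called 10 higher and 13 lower. Leaving out 1 plate gave more calls, 52 without *prrx1b*-/- plate 1, 50 without *prrx1b*-/- plate 2, 163 without wild type plate 1 and 74 without wild type plate 2, and the 9 genes passed each time. In wells of 3000 or more transcripts 2 of the 9 genes passed, and with the limit of 4000 CPM 2 of the 8 that could be tested.

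*si:dkey-238c7.13*, an uncharacterised gene, had 124 and 101 CPM in *prrx1b*-/- and 1208 and 3805 CPM in wild type injury epicardium-like wells (log2 fold change -4.48 ± 0.50, edgeR adjusted p = 0.010). Genes past the threshold were named here only if their plates did not overlap between the genotypes, so that lack of overlap is not a result. *si:dkeyp-1h4.9*, also uncharacterised, had 188 and 267 CPM against 814 and 1833 CPM (-2.53 ± 0.37, adjusted p = 0.037), and *si:ch211-121a2.2* 7.51 and 4.17 CPM against 94.9 and 62.5 CPM (-3.74 ± 0.50, adjusted p = 0.032). For *si:dkeyp-1h4.9* the paper already reports a strong drop in injured *prrx1b*-/- hearts, seen by staining its RNA in heart sections. *ifi27.2*, an interferon-inducible gene, had 41.3 and 27.8 CPM in *prrx1b*-/- and 230.1 and 306 CPM in wild type injury epicardium-like wells (-2.96 ± 0.32, adjusted p = 0.010). *TNC* (ENSDARG00000021948), encoding the matrix glycoprotein tenascin-C, had 18.8 and 37.5 CPM against 181 and 138 CPM (-2.44 ± 0.36, adjusted p = 0.037). The other 4 genes have no symbol in the table, and of these ENSDARG00000082180 had 511 and 349.9 CPM in *prrx1b*-/- and 4130.1 and 1672 CPM in wild type injury epicardium-like wells.

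For 4 of the named genes the plates of the genotypes did not overlap in the other wells either. Genotype was not tested on its own there. The share of all genes without such overlap is not given, so this count is a description only. The remaining named gene, *si:ch211-121a2.2*, was after thinning found in 0% and 0% of other *prrx1b*-/- wells, against 3.73% and 2.82% of other wild type wells. Levels in other wells are not given here for the genes without a symbol. In other wells, *si:dkey-238c7.13* had 37.6 and 30.3 CPM in *prrx1b*-/- and 595 and 651 CPM in wild type plates, and *si:dkeyp-1h4.9* had 34.3 and 49.7 CPM against 290.2 and 336 CPM. *ifi27.2* had 15.4 and 10.2 CPM against 184 and 219 CPM, and *TNC* had 29.3 and 52.6 CPM against 75.6 and 104.5 CPM. For *TNC* the *prrx1b*-/- plates were thus lower in injury epicardium-like than in other wells, and the wild type plates were higher. The interaction of genotype and class was 0.02 ± 0.31 for *si:dkey-238c7.13*, 0.55 ± 0.28 for *si:dkeyp-1h4.9*, 1.11 ± 0.36 for *ifi27.2* and -1.30 ± 0.41 for *TNC* on the log2 scale (edgeR adjusted p = 1.00, 0.97, 0.91 and 0.91), so no difference in the genotype effect was shown.

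**Figure D5:**
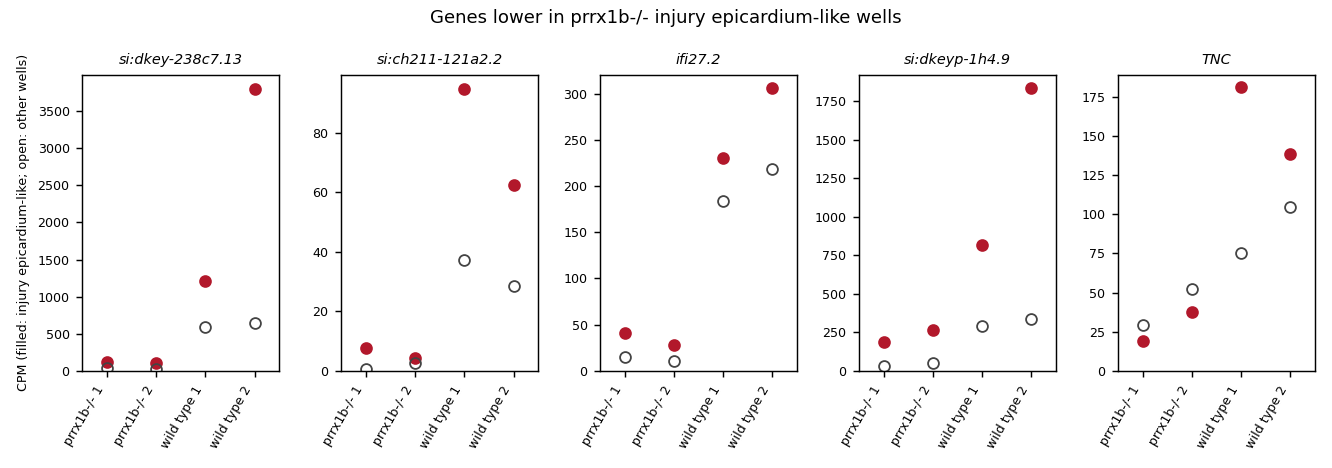
Levels (y axis, CPM) of the 5 named genes that were lower in *prrx1b*-/- injury epicardium-like wells, in each plate, for injury epicardium-like wells (filled) and all other wells (open). *ifi27.2* lies at 27.8 to 41.3 CPM in *prrx1b*-/- and at 230.1 to 306 CPM in wild type injury epicardium-like wells.

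Of the listed genes *TNC* alone passed. None passed of 71 ribosomal protein, 66 oxidative phosphorylation, 13 collagen, 7 complement, 19 secreted signal and prostaglandin synthesis or 11 retinoic acid pathway genes. Their medians were -0.35, -0.44, 0.24, 0.29, 0.24 and 0.07 on the log2 scale, beside -0.004 over all genes tested. The log2 fold change was negative for 68 of the 71 ribosomal protein genes, 60 of the 66 oxidative phosphorylation genes and 11 of 13 interferon-inducible genes, and positive for 11 of the 13 collagen genes, which is a count of signs over the same 4 plates and not a test. In other wells the ribosomal protein list also summed to less in *prrx1b*-/- (90770.5 and 89381 CPM) than in wild type plates (114640 and 127657 CPM). So did the oxidative phosphorylation list (6871 and 6474 against 7043 and 8496 CPM) and the interferon-inducible list (3849 and 3633 against 4678 and 4726 CPM). Collagens in other wells overlapped between the genotypes (40330 and 42415 against 29663 and 41811 CPM). Among single genes that did not pass, *CLU*, encoding the secreted chaperone clusterin, had 3754 and 4524 CPM in *prrx1b*-/- and 400 and 2113 CPM in wild type injury epicardium-like wells (1.72 ± 0.55, edgeR adjusted p = 0.35). *THBS1* (ENSDARG00000010785), a thrombospondin gene, had 95.8 and 232 CPM against 43.1 and 13.2 CPM (2.52 ± 0.55, adjusted p = 0.16), and *loxl2a*, encoding a collagen cross-linking enzyme, 216 and 165 CPM against 94.9 and 69.1 CPM (1.21 ± 0.29, adjusted p = 0.19). *FOS* had 1681 and 1282 CPM against 2882 and 2538 CPM (-0.86 ± 0.20, adjusted p = 0.18). The plates of the genotypes did not overlap for these 4 genes. That is no support, since they were picked by small p and the share over all genes tested is not given.

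Whether the genotype effect differed between injury epicardium-like and other wells was tested by the interaction over all 8 sums. Of 9895 genes, 0 (0%) passed with edgeR and with DESeq2, and 491 had an unadjusted p under 0.05 with edgeR. The smallest p belonged to *STEAP4*, encoding a metalloreductase, which had 1187 and 950 CPM in *prrx1b*-/- and 512 and 349 CPM in wild type injury epicardium-like wells, whereas other wells had 250.3 and 236 CPM in *prrx1b*-/- and 273 and 162 CPM in wild type plates (interaction 1.22 ± 0.22, edgeR adjusted p = 0.14). *tdh* (1.96 ± 0.39) and *npb* (3.08 ± 0.62) had adjusted p values of 0.15, and the value of *npb* turned to -0.27 and -0.63 with limits of 1000 and 4000 CPM. Further down, *si:ch73-308b14.1* (0.51 ± 0.11), *hsp70l* (-0.77 ± 0.17) and *THBS1* (2.33 ± 0.55) had adjusted p values of 0.25 to 0.37. These values are given for size only.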

How the data were processed

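mCherry-positive cells of 2 *prrx1b*-/- and 2 wild type plates were profiled by SORT-seq, a plate-based method that tags the transcripts of 1 sorted cell per well and counts each molecule once. The deposited values are expected counts, that is, the authors' number of different molecular barcodes per gene and well, corrected for barcodes drawn more than once and not scaled for depth. The submitters' processing notes name BWA 0.6.2, and the methods name the Zv9 genome. The correction was checked and matched 4096 possible barcodes (6 bases), although the labels name fewer bases. Of 20905 genes with a count, 16194 had a symbol in the gene table.

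Wells with 1000 or more transcripts were kept, with 34 to 71 injury epicardium-like wells and 303853 to 720246 of their transcripts per plate. Sums per plate and class were rounded and tested with edgeR 4.0.16 (filterByExpr, TMM, quasi-likelihood test, Benjamini-Hochberg adjustment) in R 4.3.3. Replicate numbers were taken only as names of plates, and class comparisons within a plate used the plate as a block. Shares were compared by exact permutation over plates. Alternatives were DESeq2 1.42.0 and its size factors, no filter, limits of 1000 and 4000 CPM, wells of 3000 or more transcripts, thinning to 1000, members chosen on a part of the transcripts, other wells with *aldh1a2* or *wt1b* only, other blocks, and each plate left out. The tests were checked on simulated data. Named genes were those past the threshold with the same direction in every plate and at least 50 CPM, ranked by log2 fold change (15 highest, 10 lowest), for genotype those whose plates did not overlap, for the interaction the 10 smallest p, in each list the 4 with the smallest p, and a few genes of the study such as *tcf21*, *tbx18* and *si:dkeyp-1h4.9*. The members and lists were chosen with earlier results of these data known. Some genes are not reported here.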

Additional observations from a re-analysis of the deposited data

Results flagged for a closer look

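In 4 of the 10 genes with the smallest interaction p values, injury epicardium-like wells differed from other wells in opposite directions in the genotypes, upwards in both *prrx1b*-/- plates and downwards in both wild type plates. None passed the edgeR interaction test. Picking genes by that p favours opposite directions, so their number is a description, and the share over all genes tested is not given. *gbp1*, an interferon-inducible GTPase gene, had 56.4 and 41.7 CPM in injury epicardium-like and 31.8 and 23.01 CPM in other *prrx1b*-/- wells, and 37.4 and 19.7 CPM in injury epicardium-like and 74.8 and 93.8 CPM in other wild type wells (interaction 2.45 ± 0.47 on the log2 scale, edgeR adjusted p = 0.15). *ccl25b*, encoding a chemokine, had 291 and 197 CPM against 147 and 122 CPM in *prrx1b*-/- and 221 and 155 CPM against 255 and 256 CPM in wild type plates (1.38 ± 0.28, adjusted p = 0.16). *twist2*, a transcription factor gene of mesenchymal cells, had 77.03 and 49.99 CPM against 26.8 and 20.8 CPM in *prrx1b*-/- and 5.75 and 6.58 CPM against 16.8 and 19.4 CPM in wild type plates (3.02 ± 0.66, adjusted p = 0.25). *phf20l1* had 43.2 and 31.9 CPM against 24.996 and 20.4 CPM in *prrx1b*-/- and 5.75 and 0 CPM against 53.8 and 13.3 CPM in wild type plates (4.29 ± 0.79, adjusted p = 0.14). *TNC* (ENSDARG00000021948), one of the genes lower in *prrx1b*-/- injury epicardium-like wells, went the other way, with 18.8 and 37.5 CPM against 29.3 and 52.6 CPM in *prrx1b*-/- and 181 and 138 CPM against 75.6 and 104.5 CPM in wild type plates (-1.30 ± 0.41, adjusted p = 0.91). The wild type injury epicardium-like sums held 347745 and 303853 transcripts, so the values of *twist2* and *phf20l1* there rest on very few transcripts.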

How the results depend on the processing

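The count of genes that differed between injury epicardium-like and all other wells was 1632, and it was 932 with a limit of 4000 CPM, 959 with wells chosen on a part of their transcripts and 457 after thinning, where 403 of 914 calls that could be tested again were kept and 47 genes changed sign. Against remote-like wells, 1114 genes passed, 727 with the limit of 4000 and 281 after thinning. For the genotypes within injury epicardium-like wells, 9 genes passed, against 23 with DESeq2, 14 with its size factors, 66 and 4 with limits of 1000 and 4000 CPM, 19 with wells chosen on a part of their transcripts, 90 without a filter, 2 in wells of 3000 or more transcripts (both among the 9), 14 after thinning and 50 to 163 when a plate was left out. The interaction gave 0 genes, 20 and 10 with the limits of 1000 and 4000, 10 without a filter and 6 to 21 without a plate. The causes were not tested. With no filter, 629 of 1704 calls against other wells were higher, and with the limit of 4000 CPM 402 of 932.

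Plates with the same replicate number gave a correlation of 0.00874 in how they deviated. With 2 plates of each genotype this is a single value, the same for both numbers. Whether plates of a number were handled together was not tested, and the numbers were taken as names of plates. With the replicate block, 46 genes passed between the genotypes (28 higher and 18 lower, the 9 among them) and 0 in the interaction. Without the plate block, 1319 genes passed against other wells and 958 against remote-like wells.

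*tcf21* (TCF21), which did not pass, turned to 0.035 against other wells with *aldh1a2* or *wt1b*, and lay between -0.67 and 0.041 with a plate left out. *tbx18* (TBX18) turned to 0.45 with the limit of 4000, 0.27 against those other wells and 0.070 in wells of 3000 or more transcripts, and lay between -0.19 and 0.13 with a plate left out. The interaction of *npb* turned to -0.27 and -0.63 with limits of 1000 and 4000 CPM.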
